A study of Homo sapiens with 9 samples.

Results

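The small-subunit ribosomal proteins are the proteins that coat the small-subunit rRNA of the cytosolic ribosome. Their transcripts were examined here as 28 protein-coding genes, chosen by symbol among the 58735 genes of the table, with processed pseudogenes left out. RNA abundance was measured by poly-A RNA sequencing in HEK293T, a transformed line of human embryonic kidney origin with a viral large T antigen. The cells were transfected for 36 h with siRNA at 10 nM: 3 libraries had an siRNA against PHF12 (PHF12 knockdown), 3 had an siRNA against SUDS3 (SUDS3 knockdown) and 3 had a negative control siRNA (control). All cells received the same lipid reagent, and each target was lowered by 1 siRNA only, so a change that follows the target and a change that follows the siRNA itself cannot be told apart. Both target genes encode proteins of the SIN3 complexes, repressors that carry histone deacetylases. Both knockdowns were compared with the same 3 control libraries, so their fold changes share the noise of those controls.

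Ribosomal proteins are made in large and roughly matched amounts, and a subunit that lacks one of them is usually not completed. Most of their mRNAs begin with a cytosine followed by a run of pyrimidines, the 5′ terminal oligopyrimidine (TOP) motif, through which the mTOR pathway and the binding protein LARP1 control their translation and stability. In dividing cells such as HEK293T they are among the most abundant mRNAs.

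Library totals lay between 37962926 and 50946148 counts. PHF12 fell to 26.9 ± 2.08 CPM (counts scaled by TMM to a common library size) in the PHF12 knockdown, against 49.9 ± 0.938 CPM in controls, which left 54.0%. SUDS3 fell to 22.1 ± 0.937 CPM in the SUDS3 knockdown, against 111.1 ± 3.31 CPM in controls, which left 19.9% (SD, n = 3 each). Each knockdown also moved the other target: SUDS3 fell by 27.1% in PHF12 knockdown (log2 fold change -0.46, edgeR adjusted p = 6.83e-10), and PHF12 rose by 23.3% in SUDS3 knockdown (0.30, adjusted p = 7.19e-05). All 9 HEK293T markers on the list were detected, with a summed level of 1665 to 1719 CPM in PHF12 knockdown, 1618 to 1641 CPM in SUDS3 knockdown and 1679 to 1697 CPM in control libraries. Within that sum the markers moved both ways, 3 up and 4 down in PHF12 knockdown, and 2 up and 4 down in SUDS3 knockdown. CDH2 (log2 fold changes of -0.37 in PHF12 knockdown and -1.18 in SUDS3 knockdown) and LIN28B (-0.81 and -0.49) fell in both. KRT8 (0.83 and -0.61) and VIM (0.16 and -0.32) rose in PHF12 knockdown and fell in SUDS3 knockdown, and NEFM (-0.22 and 0.40) did the reverse. The 10 markers of other cell types summed to 19.5 to 21.9 CPM in PHF12 knockdown, 23.2 to 26.2 CPM in SUDS3 knockdown and 13.7 to 14.8 CPM in control libraries. PTPRC, CD3E and HBB, which define leukocytes, T cells and red cells, were at 0 in every library, and most of the sum was the collagen gene COL1A1, whose part in the results below was not tested.

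The start of the RefSeq transcript shows the TOP motif directly in most members. A cytosine at the start followed by at least 4 pyrimidines, so a run of at least 5, was found at an annotated start of 19 of the 25 members looked up (76%), against 1404 of all 27305 genes in the RefSeq promoter table (5.14%; GRCh38.p14). RPS2 and RPS15A were not in that table, and RPS20 was not used in this count. The 5 windows below hold 10 bases before the annotated start and 20 bases from it, with the pyrimidine run in capitals. They are shown for the member that fell most with the PHF12 siRNA (RPS21), the 2 members with the largest rises (RPS25 and RPS29), the member that fell most with the SUDS3 siRNA (RPS26) and RPS6, the target of the S6 kinases.
RPS21: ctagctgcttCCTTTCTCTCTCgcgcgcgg
RPS25: gcagcgcttcCTTTTTgtccgacatcttga
RPS29: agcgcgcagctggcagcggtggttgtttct
RPS26: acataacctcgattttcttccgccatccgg
RPS6: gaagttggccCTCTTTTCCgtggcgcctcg
In GRCh38.p14 these windows lie at chr20:62387093-62387122 on the plus strand (RPS21), chr11:119018324-119018353 on the minus strand (RPS25), chr14:49598691-49598720 on the minus strand (RPS29), chr12:56041908-56041937 on the plus strand (RPS26) and chr9:19380217-19380246 on the minus strand (RPS6). RPS21 had a run of 12 pyrimidines, RPS6 one of 9 and RPS25 one of 6. RPS26 and RPS29 had none at the annotated start, and neither did RPS4X, RPS7, RPS15 and RPS28. The member with the strongest fall carried a long run, and members with and without a run stood among the largest rises.

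In the 300 bases around the start (250 before, 50 after), the motif CCGGAAG of ETS factors was found on either strand in 9 of these 25 members (36%), against 12.2% of all genes in the table. AAGATGGC, a motif bound by YY1, was found in 3 (12%) against 3.52%. The E-box CACGTG was found in 2 (8%) against 8.78%, and TATAAA in 2 (8%) against 14.0%. RPS21, RPS25, RPS4X and RPS6 were among those with CCGGAAG. These matches describe letters in a window, and binding was not measured.

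The level of each member differed widely from gene to gene and little from library to library. On the scale of CPM per kilobase of coding sequence, the highest level in controls was that of RPS4X, an X-linked protein of the subunit body, at 4136 ± 86.1 (SD, n = 3). RPS6, RPS18, RPS24 and RPS2 followed, between 3786 and 3194. The bulk of the family lay lower, from RPS27A at 2399 to FAU at 800. RPS26 stood below it at 359 ± 15.8 and RPS10 at 104 ± 5.52, so the highest mean was 39.6 times the lowest. In this order, 13 of the 27 pairs of neighbours overlapped across the 3 control libraries, and RPS21 (1272 ± 13.6) overlapped RPS29 (1271 ± 21.2). The low value of RPS10 belongs to a gene that shares 929 of its 2358 exon bases (39.4%) with RPS10-NUDT3, an annotated readthrough gene on the same strand listed at 0 counts in every library, and how reads in the shared exons were counted was not given in the sources used here.

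**Figure D1:**
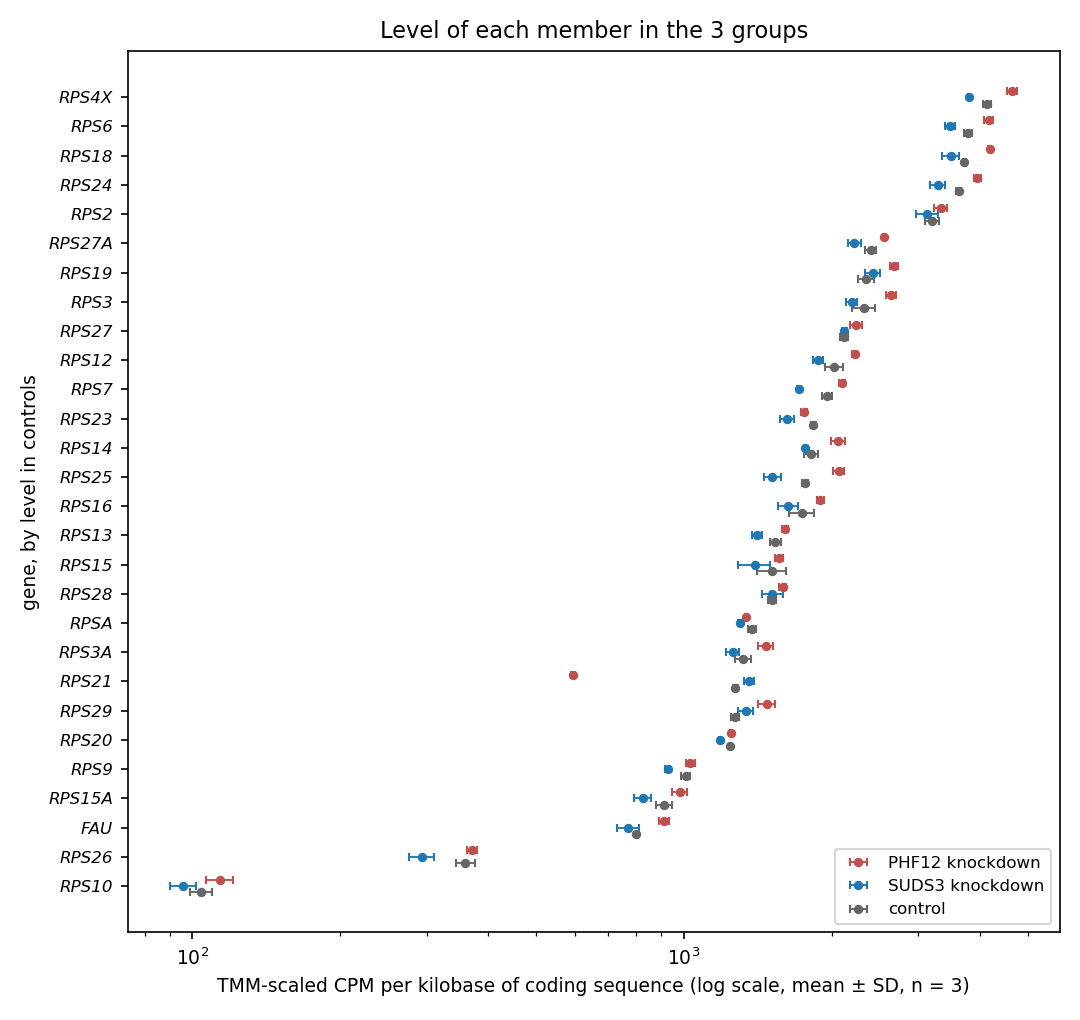
Level of each of the 28 genes in PHF12 knockdown (red), SUDS3 knockdown (blue) and control (grey) libraries, as TMM-scaled CPM per kilobase of coding sequence on a log axis (mean ± SD, n = 3), ordered by the control level. The order is close to that of the controls in both knockdowns except for RPS21, whose PHF12 knockdown value of 595 stands left of 1272 in controls.

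RPS21 was the one member that departed from the family, and it did so with the PHF12 siRNA. RPS21 (ENSG00000171858, GRCh38 chr20:62387116-62388520, plus strand) encodes a small protein of the subunit body. Its yeast ortholog works beside the ortholog of RPSA in the late maturation of small-subunit rRNA. It measured 150.9, 150.4 and 148.5 CPM in the PHF12 knockdown libraries, 351.4, 335.0 and 339.0 CPM in the SUDS3 knockdown libraries, and 324.5, 318.0 and 319.3 CPM in the controls. The PHF12 knockdown libraries lay far below both other groups, and the SUDS3 knockdown libraries lay slightly above all 3 controls without overlap.

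RPS21 fell by 53.2% with the PHF12 siRNA (an edgeR log2 fold change of -1.10, SE 0.03, edgeR quasi-likelihood test, adjusted p = 2.65e-25). Among 18088 genes tested its log2 fold change ranked 418 from the lowest, and the next lowest member, RPS23, stood at -0.06. It rose by 6.60% with the SUDS3 siRNA (an edgeR log2 fold change of 0.09, SE 0.03, adjusted p = 0.0161). That rise no longer passed with upper-quartile scaling, nor when control replicate 2 or SUDS3 knockdown replicate 1 was left out (adjusted p up to 0.143). In SUDS3 knockdown over PHF12 knockdown, RPS21 was higher by a log2 fold change of 1.19 (SE 0.03, adjusted p = 1.13e-26). Across 20 other settings the fall with the PHF12 siRNA lay between -1.10 and -1.06, and with libraries scaled to the members themselves it was -1.21. In these bulk samples, fewer cells that make a transcript and less of it per cell cannot be told apart.

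**Figure D2:**
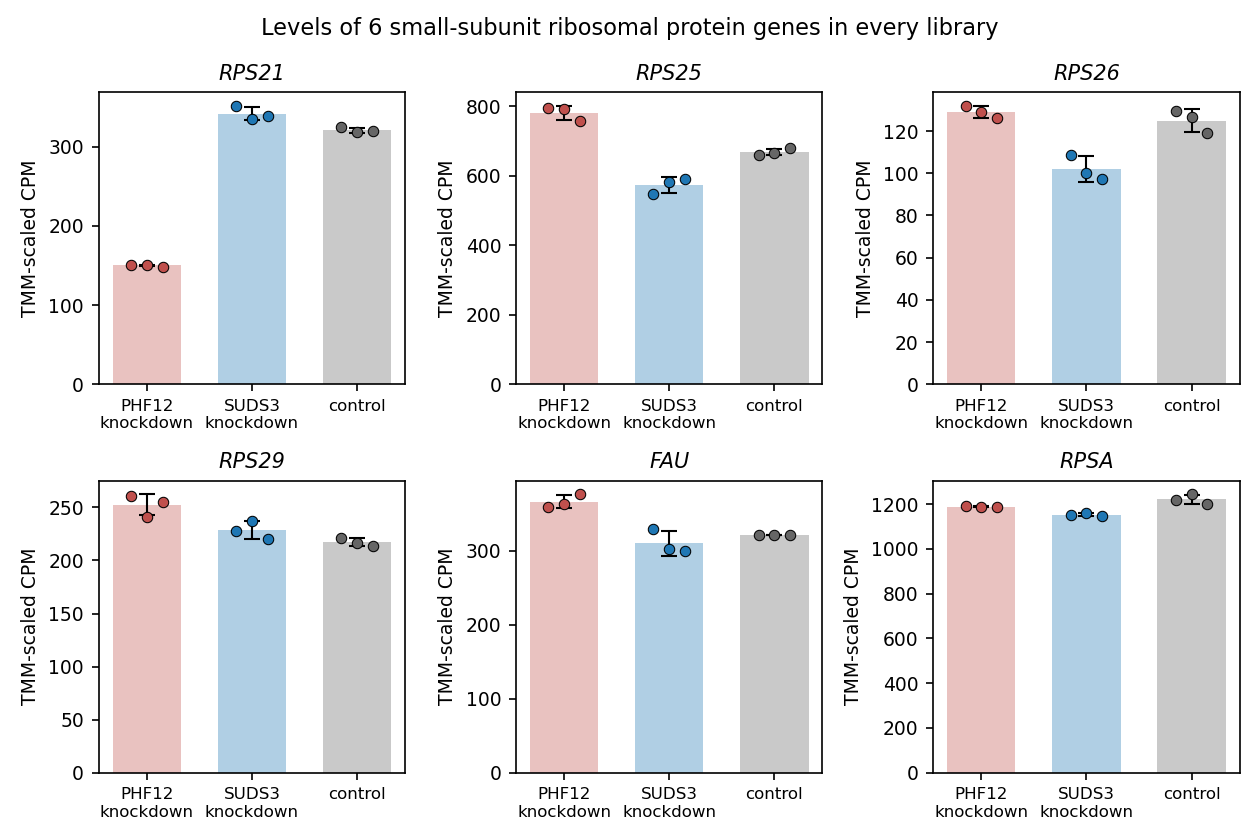
TMM-scaled CPM of 6 members in each library, with points for libraries, bars for means and error bars for SD (n = 3), in the order PHF12 knockdown, SUDS3 knockdown, control. RPS21 at 149 to 151 CPM in PHF12 knockdown is far below the other groups, RPS25 is above control in PHF12 knockdown and below it in SUDS3 knockdown, and RPS26 is below control in SUDS3 knockdown.

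The fall of RPS21 also changed its part within the family. It made up 0.497%, 0.497% and 0.503% of the members' summed counts in the PHF12 knockdown libraries, 1.35%, 1.27% and 1.30% in the SUDS3 knockdown libraries, and 1.16%, 1.13% and 1.16% in the controls. On the per-kilobase scale, RPS21 had 595 ± 4.90 in PHF12 knockdown and 1272 ± 13.6 in controls, which placed it between FAU and RPS26 in the control order. No exon of another gene with counts overlapped RPS21, and the counts of its 3 annotated pseudogenes came to 0.0112% of its own.

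The neighbours of RPS21 within 100 kb on chromosome 20 did not all move with it. OSBPL2, an oxysterol-binding protein gene, fell with the PHF12 siRNA (an edgeR log2 fold change of -0.50, adjusted p = 1.39e-09). ADRM1, a proteasomal ubiquitin receptor, rose (0.14, adjusted p = 0.00194), and so did CABLES2 (0.34, adjusted p = 0.00105), the nearest gene downstream. LAMA5, a laminin chain, had -0.08 (adjusted p = 0.509) and GATA5 had 0.54 (adjusted p = 0.119), and neither passed.

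Most of the other members rose slightly with the PHF12 siRNA. Of 28 members, 17 rose, RPS21 fell and 10 did not pass, beside 14.8% of all 18088 genes that rose and 17.1% that fell. The 17 rises made up 60.7% of the members. The median log2 fold change was 0.11 with quartiles of 0.06 and 0.17, against a median of -0.00 over all genes, and the 17 rises were small, from 0.08 to 0.23. In 18 members all 3 PHF12 knockdown libraries lay above all 3 controls, in 3 all lay below, and in 7 the groups overlapped. The same count was not made over all genes. Without RPS21 the members' median was 0.12. Rises were 46.4% of the calls over all genes under TMM and 56.9% under upper-quartile scaling, where the members' median was 0.15.

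RPS25 had the largest rise. It encodes a protein of the subunit head needed for initiation at several viral internal ribosome entry sites. RPS25 (ENSG00000118181, GRCh38 chr11:119015712-119018691, minus strand) measured 794, 791 and 758 CPM in the PHF12 knockdown libraries, 547, 581 and 589 CPM in the SUDS3 knockdown libraries, and 659, 666 and 678 CPM in the controls. The 3 groups did not overlap, with PHF12 knockdown highest and SUDS3 knockdown lowest. RPS25 rose by 17.0% with the PHF12 siRNA (a log2 fold change of 0.23, SE 0.03, edgeR adjusted p = 6.92e-08) and fell with the SUDS3 siRNA (-0.22, SE 0.03, adjusted p = 9.16e-08).

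RPS29, a zinc-binding protein of the head, measured 261, 241 and 255 CPM in the PHF12 knockdown libraries, 228, 237 and 220 CPM in the SUDS3 knockdown libraries, and 221, 217 and 214 CPM in the controls. The PHF12 knockdown libraries were above all others, and SUDS3 knockdown and control overlapped. RPS29 rose with the PHF12 siRNA (a log2 fold change of 0.22, adjusted p = 6.16e-06) and had 0.07 with the SUDS3 siRNA (adjusted p = 0.108). FAU encodes the small-subunit protein S30 fused behind a ubiquitin-like protein. It measured 359, 364 and 376 CPM in the PHF12 knockdown libraries, 329, 302 and 299 CPM in the SUDS3 knockdown libraries, and 321, 321 and 322 CPM in the controls. FAU rose with the PHF12 siRNA (0.19, adjusted p = 1.86e-05), its PHF12 knockdown libraries being above the rest, and had -0.05 with the SUDS3 siRNA (adjusted p = 0.223). FAU shares 398 of its 1846 exon bases with SYVN1 on the same strand. Exons of RPS3A, RPS6, RPS18, RPS23, RPS25, RPS27A, RPS28, RPS29 and FAU also overlap a gene with counts on the opposite strand, and a stranded kit was used, but the strand setting of counting was not stated.

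RPS19, the gene most often mutated in Diamond-Blackfan anaemia, measured 1179, 1147 and 1189 CPM in the PHF12 knockdown libraries, 1082, 1084 and 1016 CPM in the SUDS3 knockdown libraries, and 1067, 1026 and 991 CPM in the controls. It was highest in all 3 PHF12 knockdown libraries, and the other groups overlapped. RPS19 rose with the PHF12 siRNA (a log2 fold change of 0.19, adjusted p = 1.76e-06) and had 0.05 with the SUDS3 siRNA (adjusted p = 0.228).

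At the lower end with the PHF12 siRNA, behind RPS21, stood RPS23 and RPSA. RPS23 lines the decoding centre. It measured 762, 766 and 747 CPM in the PHF12 knockdown libraries, 674, 722 and 705 CPM in the SUDS3 knockdown libraries, and 786, 802 and 789 CPM in the controls. RPSA, also known as a laminin receptor precursor, measured 1193, 1186 and 1187 CPM in PHF12 knockdown, 1152, 1159 and 1145 CPM in SUDS3 knockdown, and 1220, 1243 and 1201 CPM in control libraries. In both genes every PHF12 knockdown library was below every control, but the differences of -0.06 and -0.04 did not pass (edgeR adjusted p = 0.08 and 0.243).

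**Figure D3:**
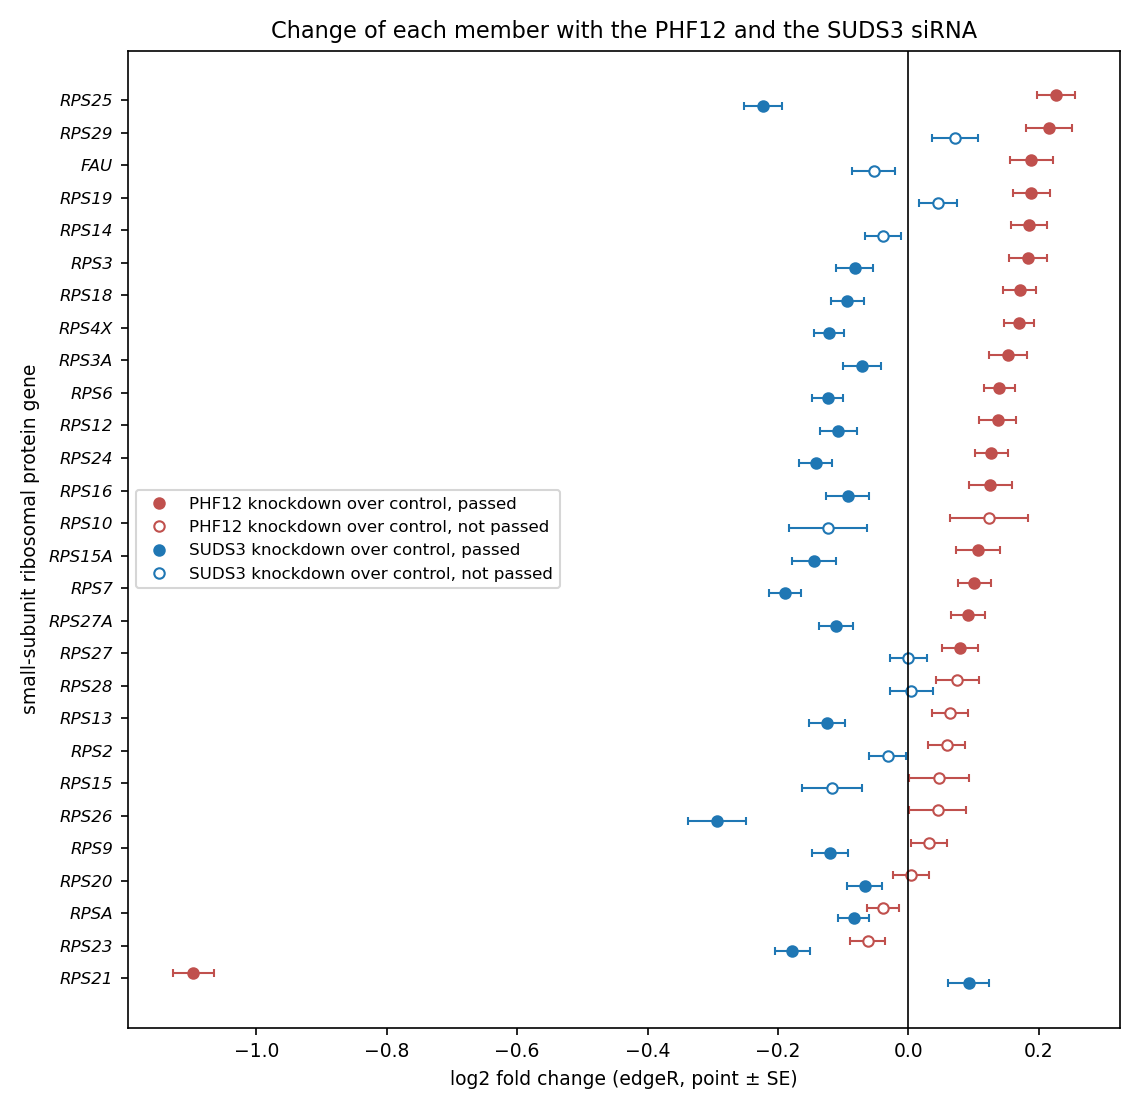
Log2 fold change of each member over control (edgeR estimate ± SE) for the PHF12 siRNA (red) and the SUDS3 siRNA (blue), ordered by the PHF12 value, with filled points for adjusted p under 0.05. RPS21 at -1.10 stands alone on the left in red, most other red points lie right of 0 and most blue points left of it.

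Most members fell slightly with the SUDS3 siRNA. Of 28 members, 18 fell, RPS21 rose and 9 did not pass, beside 19.2% of all 18088 genes that fell and 19.6% that rose. The median log2 fold change was -0.10 (quartiles -0.12 and -0.05), against -0.02 over all genes, and the falls ran from -0.29 to -0.07. In 15 members all 3 SUDS3 knockdown libraries lay below all 3 controls, in 1 all lay above, and in 12 the groups overlapped. No such count was made over all genes. Rises among all genes made up 50.5% of calls with TMM and 44.2% with upper-quartile scaling. The sign of the members' medians in this comparison and with the PHF12 siRNA was the same with TMM, RLE, upper-quartile and library-total scaling.

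RPS26 fell most with the SUDS3 siRNA. It sits where mRNA leaves the small subunit and contacts the bases before the start codon. RPS26 (ENSG00000197728, GRCh38 chr12:56041351-56044697, plus strand) measured 132, 129 and 126 CPM in the PHF12 knockdown libraries, 109, 100.02 and 97.2 CPM in the SUDS3 knockdown libraries, and 130, 126 and 119 CPM in the controls. All 3 SUDS3 knockdown libraries lay below the rest, and PHF12 knockdown overlapped control. RPS26 fell by 18.4% with the SUDS3 siRNA (a log2 fold change of -0.29, SE 0.04, edgeR adjusted p = 1.35e-06) and had 0.04 with the PHF12 siRNA (adjusted p = 0.501).

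RPS7, a protein of the subunit body that also binds the p53 regulator MDM2, measured 1247, 1222 and 1214 CPM in the PHF12 knockdown libraries, 996, 1003 and 1013 CPM in the SUDS3 knockdown libraries, and 1123, 1138 and 1172 CPM in the controls. The 3 groups did not overlap. RPS7 fell with the SUDS3 siRNA (a log2 fold change of -0.19, adjusted p = 1.24e-07) and rose with the PHF12 siRNA (0.10, adjusted p = 0.00152). RPS23 also fell with the SUDS3 siRNA (-0.18, adjusted p = 1.95e-06), as did RPSA (-0.08, adjusted p = 0.00518).

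RPS4X, the most abundant member, measured 3722, 3753 and 3581 CPM in the PHF12 knockdown libraries, 3028, 2996 and 3005 CPM in the SUDS3 knockdown libraries, and 3320, 3310 and 3197 CPM in the controls. It stood above control in every PHF12 knockdown library and below it in every SUDS3 knockdown library. RPS4X rose with the PHF12 siRNA (a log2 fold change of 0.17, adjusted p = 2.03e-07) and fell with the SUDS3 siRNA (-0.12, adjusted p = 4.36e-05).

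Several of the small falls with the SUDS3 siRNA lay near the threshold. Their calls depended on which libraries were included and on the scaling and test used. The fold changes kept their sign, except under scaling to the members. RPS20, RPS3A, RPS3, RPS16, RPS18 and RPSA no longer passed when 1 library or another was left out, with adjusted p up to 0.16, 0.354, 0.184, 0.225, 0.0565 and 0.0515 in that order. In those cases the log2 fold change was -0.07 to -0.06 for RPS20, -0.07 to -0.04 for RPS3A, -0.08 to -0.06 for RPS3, -0.09 to -0.06 for RPS16, -0.07 for RPS18 and -0.07 for RPSA. RPS18 lost its call without SUDS3 knockdown replicate 1 and RPSA without control replicate 2. RPS20 lost it without any 1 of the 9 libraries. RPS3A lost it without PHF12 knockdown replicate 1 or 3, SUDS3 knockdown replicate 1 or 2, or control replicate 2 or 3. RPS3 lost it without SUDS3 knockdown replicate 1 or 3 or control replicate 1 or 2, and RPS16 without SUDS3 knockdown replicate 2 or 3 or control replicate 1 or 2. The rises with the PHF12 siRNA of RPS15A (without PHF12 knockdown replicate 1 or control replicate 1 or 3), RPS27 (without PHF12 knockdown replicate 1 or control replicate 2 or 3) and RPS27A (without control replicate 1) also no longer passed, with log2 fold changes of 0.08 to 0.09, 0.05 to 0.07 and 0.07. Leaving out SUDS3 knockdown replicate 1 added falls of RPS10, RPS15 and FAU with the SUDS3 siRNA, and a fall of RPS28 in SUDS3 knockdown over PHF12 knockdown. Leaving out control replicate 3 added those of RPS10 and RPS15 and a rise of RPS13 with the PHF12 siRNA. Leaving out SUDS3 knockdown replicate 3 added rises of RPS19 and RPS29 with the SUDS3 siRNA and that of RPS13 with the PHF12 siRNA. By limma on log2(TPM + 1), the SUDS3 siRNA falls of RPS3, RPS3A, RPS12, RPS16, RPS18 and RPS20 no longer passed. Without a filter that of RPS15A was lost too. DESeq2 lost those of RPS3, RPS3A and RPS16. With the PHF12 siRNA, limma lost the rises of RPS15A, RPS16 and RPS27, and without a filter that of RPS27A. The calls on RPS21 (PHF12 siRNA), RPS25 and RPS4X (both siRNAs), RPS29 and FAU (PHF12 siRNA) and RPS26 (SUDS3 siRNA) were past the threshold in all 20 settings other than scaling to the members.

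Set side by side, and with the same controls under both, the calls fell as follows. RPS3, RPS3A, RPS4X, RPS6, RPS7, RPS12, RPS15A, RPS16, RPS18, RPS24, RPS25 and RPS27A rose with the PHF12 siRNA and fell with the SUDS3 siRNA. RPS14, RPS19, RPS27, RPS29 and FAU rose with the PHF12 siRNA and did not pass with the SUDS3 siRNA. RPS9, RPS13, RPS20, RPS23, RPS26 and RPSA did not pass with the PHF12 siRNA and fell with the SUDS3 siRNA. RPS2, RPS10, RPS15 and RPS28 passed in neither, and RPS21 fell with the PHF12 siRNA and rose with the SUDS3 siRNA.

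By place in the ribosome, members of both the head and the rest of the subunit were among the calls, and no test of a difference between them was made. The 12 head proteins have a mixed role in tRNA handling, mRNA entry and collision sensing. Of these, 8 rose with the PHF12 siRNA (RPS3, RPS12, RPS16, RPS18, RPS19, RPS25, RPS27A and RPS29) and 0 fell, by edgeR's adjusted p, by an unadjusted p under 0.05 and by DESeq2, with a median log2 fold change of 0.13. The 8 rises are 66.7% of the head proteins, beside 14.8% of all genes. Their falls with the SUDS3 siRNA numbered 7 of 12 (58.3%, beside 19.2% of all genes), with a median of -0.09. Of the 16 proteins of the body and platform, 9 rose (56.2%) and RPS21 fell with the PHF12 siRNA (median 0.09), and 11 fell (68.8%) and RPS21 rose with the SUDS3 siRNA (median -0.12).

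Several further members with known single roles can be placed by their fold changes. RPS6, whose phosphorylation by S6 kinases is a common readout of mTOR activity, rose with the PHF12 siRNA (a log2 fold change of 0.14, edgeR adjusted p = 1.23e-05) and fell with the SUDS3 siRNA (-0.12, adjusted p = 6.19e-05). RPS3, which helps form the mRNA entry channel, had 0.18 and -0.08. RPS18, at the head near the tRNA sites, had 0.17 and -0.09. RPS27A, made as a fusion behind ubiquitin, had 0.09 and -0.11, and all of these passed.

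RPS14, the gene whose loss causes the anaemia of the 5q- syndrome, had 0.19 with the PHF12 siRNA, which passed, and -0.04 with the SUDS3 siRNA, which did not. RPS24, RPS12, RPS16, RPS3A and RPS15A rose by 0.13, 0.14, 0.13, 0.15 and 0.11 with the PHF12 siRNA. With the SUDS3 siRNA they had -0.14, -0.11, -0.09, -0.07 and -0.14. All of these passed with edgeR and TMM scaling, and several did not in the other settings given above. RPS27 had 0.08 and 0.00, and the first passed. Its near copy RPS27L had 51.8 ± 5.34 CPM in PHF12 knockdown, 52.5 ± 2.19 CPM in SUDS3 knockdown and 50.9 ± 1.23 CPM in control libraries, and passed in no comparison.

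RPS10 and RPS20 are both ubiquitinated by ZNF598 when ribosomes collide. RPS10 had 0.12 with the PHF12 siRNA (adjusted p = 0.116) and -0.12 with the SUDS3 siRNA (adjusted p = 0.104), with SEs of 0.06, the widest in the family, and it fell in SUDS3 knockdown over PHF12 knockdown (-0.25, adjusted p = 0.000719). RPS20 had 0.00 (adjusted p = 0.941) and -0.07 (adjusted p = 0.0494). RPS9 and RPS13, of the subunit body, had 0.03 and 0.06 with the PHF12 siRNA, neither of which passed with edgeR and TMM scaling. That rise of RPS13 passed with DESeq2, RLE or upper-quartile scaling, counts divided by 4 and only the libraries of that contrast. That of RPS9 passed with upper-quartile scaling. Both genes fell by 0.12 on the log2 scale with the SUDS3 siRNA.

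RPS2, at the mRNA entry channel, had log2 fold changes of 0.06 in PHF12 knockdown and -0.03 in SUDS3 knockdown over control. RPS15 had 0.05 and -0.12, and none of these passed with edgeR and TMM scaling. The fall of RPS15 with the SUDS3 siRNA lay at the threshold (edgeR adjusted p = 0.0501). It passed with RLE or upper-quartile scaling, without a filter and with the replicate number as a block. The rise of RPS2 with the PHF12 siRNA passed with upper-quartile scaling, with the block and with only the libraries of that contrast. Counts on the pseudogenes of RPS2 came to 11.8% of its own, so its reads and theirs may be split. That percentage was 11.7 to 12.3 in PHF12 knockdown, 11.5 to 12.3 in SUDS3 knockdown and 11.4 to 12.2 in control libraries. RPS28 measured 338, 327 and 336 CPM in the PHF12 knockdown libraries, 333, 319 and 302 CPM in the SUDS3 knockdown libraries, and 323, 316 and 311 CPM in the controls. PHF12 knockdown was above control in each library and SUDS3 knockdown overlapped both. With edgeR and TMM scaling RPS28 passed in no comparison. Its rise with the PHF12 siRNA passed with DESeq2, RLE or upper-quartile scaling, counts divided by 4 and only the libraries of that contrast. Its fall between the knockdowns passed with upper-quartile scaling and with counts divided by 4.

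**Figure D4:**
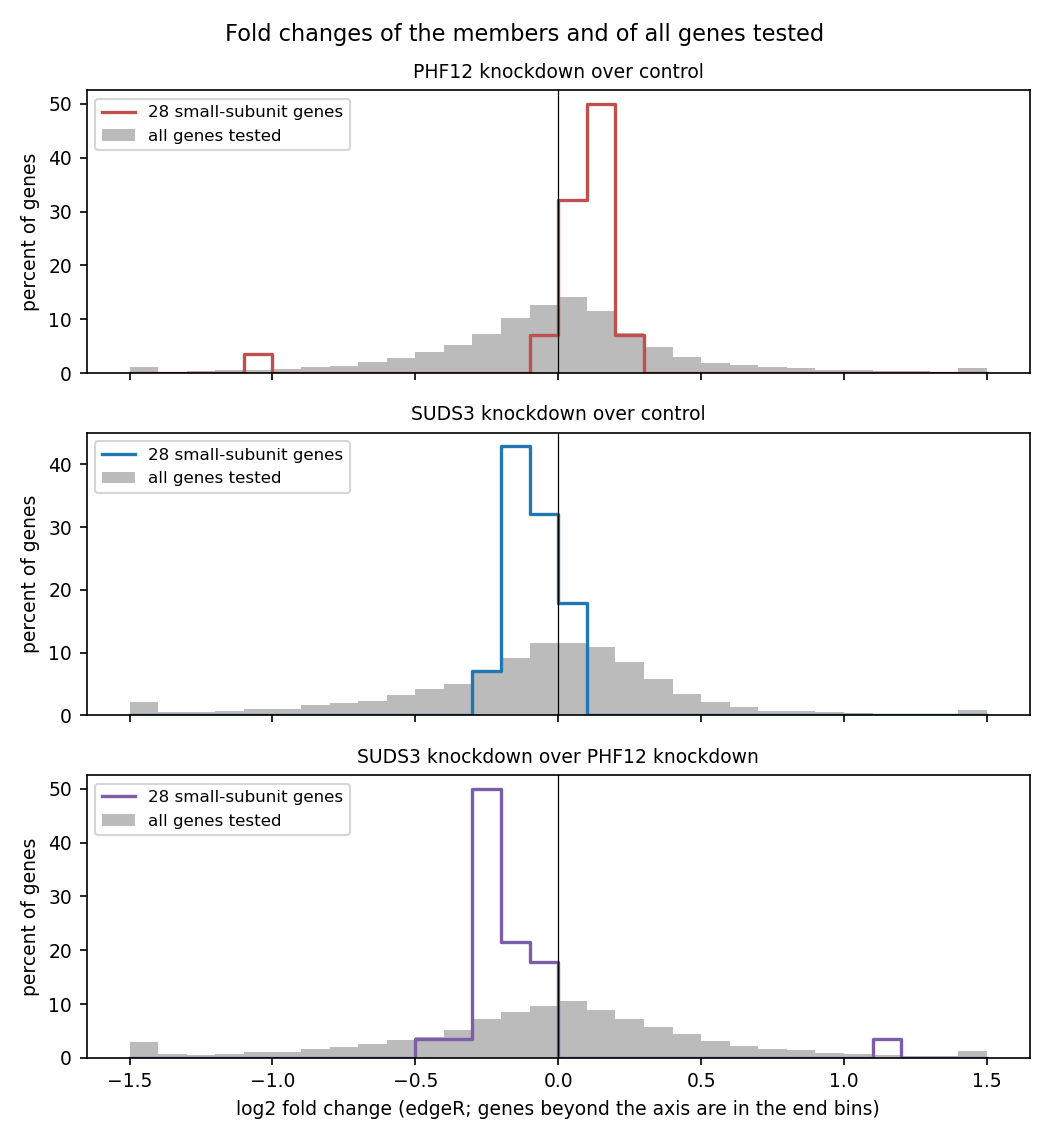
Distribution of log2 fold changes (edgeR, bins of 0.1) over the 28 members (line) and over all 18088 genes tested (grey), as percent of genes in each set, for the 3 comparisons. The members sit in a narrow band right of 0 with the PHF12 siRNA (median 0.11) and left of 0 with the SUDS3 siRNA (median -0.10), with RPS21 apart in the top and bottom panels.

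The direct comparison of the knockdowns, SUDS3 knockdown over PHF12 knockdown, had no control library on either side. The controls still entered the filter, the scaling and the shared estimate of spread, and so the SEs and adjusted p-values. In this comparison 25 of 28 members fell, RPS21 rose, and RPSA and RPS28 did not pass, beside 21.1% of all 18088 genes that fell and 22.7% that rose. The median log2 fold change was -0.22, against -0.01 over all genes. RPS25 showed the lowest value (-0.45, SE 0.03, edgeR adjusted p = 1.67e-15), followed by RPS26 (-0.34), RPS4X (-0.29) and RPS7 (-0.29). At the other end stood RPS28 (-0.07, adjusted p = 0.0839) and RPSA (-0.04, adjusted p = 0.136). In 25 members all 3 SUDS3 knockdown libraries lay below all 3 PHF12 knockdown libraries. How many of all genes did so was not counted. Rises among all genes made up 51.8% of calls with TMM and 41.2% with upper-quartile scaling, under which the members' median was -0.29. The falls of RPS2 (without PHF12 knockdown replicate 1 or SUDS3 knockdown replicate 3), RPS27 (without PHF12 knockdown replicate 1 or SUDS3 knockdown replicate 2 or 3) and RPS20 (without any 1 of these 6 libraries) no longer passed when 1 library was left out. Their log2 fold changes were then -0.07 to -0.06 for RPS2 (-0.09 with all libraries), -0.08 to -0.05 for RPS27 (-0.08) and -0.07 for RPS20 (-0.07).

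Summed over the family, the same order appeared. The 28 members together had 30064 ± 453 CPM in PHF12 knockdown, 26139 ± 158 CPM in SUDS3 knockdown and 27880 ± 409 CPM in control libraries (SD, n = 3 each). Library by library this was 30368, 30281 and 29544 CPM with the PHF12 siRNA, 26119, 26305 and 25991 CPM with the SUDS3 siRNA, and 27990, 28223 and 27428 CPM with the control siRNA. The 3 groups did not overlap. The HEK293T markers VIM and KRT8 had calls in the same directions as this sum. NEFM had calls in the opposite directions, and CDH2 and LIN28B fell with both siRNAs. The part of these markers in the sum was not tested. The difference of the sum from control was 7.84% in PHF12 knockdown and -6.25% in SUDS3 knockdown. The difference of SUDS3 knockdown from PHF12 knockdown was -13.1%. A two-sided exact permutation test gave p = 0.1 for each, the smallest value that 3 libraries against 3 allow (20 splits). The family took 2.99%, 2.64% and 2.77% of all counts in PHF12 knockdown, SUDS3 knockdown and control libraries.

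**Figure D5:**
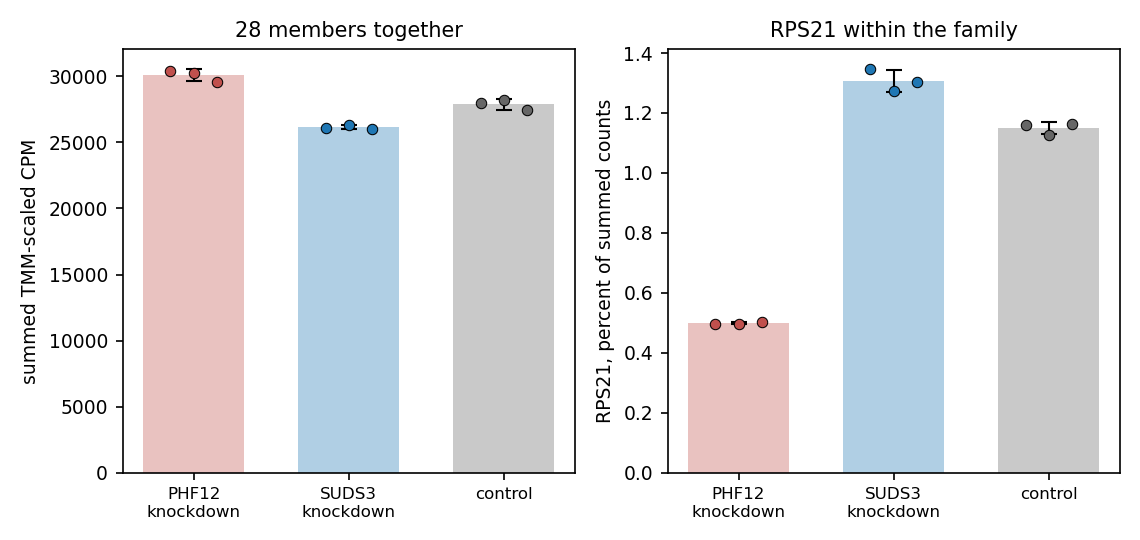
Left, summed TMM-scaled CPM of the 28 members in each library, and right, RPS21 as percent of the members' summed counts, with points for libraries, bars for means and error bars for SD (n = 3). The sum is highest in PHF12 knockdown (30064 CPM) and lowest in SUDS3 knockdown (26139 CPM), while RPS21 takes about 0.5% of the family in PHF12 knockdown and more than 1% in the other groups.

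Genes that work with the small subunit were read from lists, whose shares stand beside those over all genes, 14.8% that rose and 17.1% that fell with the PHF12 siRNA, and 19.6% that rose and 19.2% that fell with the SUDS3 siRNA. The proteins of the large subunit were the nearest list in function. Of 47 genes, 33 rose (70.2%) and 3 fell (6.38%) with the PHF12 siRNA (median log2 fold change 0.12), and 1 rose (2.13%) and 34 fell (72.3%) with the SUDS3 siRNA (median -0.12). These medians are close to those of the small subunit, and no test of a difference was made. RPLP0, a protein of the ribosomal stalk, was the large-subunit gene with the smallest adjusted p with the PHF12 siRNA. It had 1182 ± 15.8 CPM in PHF12 knockdown, 995 ± 24.96 CPM in SUDS3 knockdown and 842 ± 19.0 CPM in control libraries, and rose in both (0.49 and 0.24).

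Other mRNAs that carry the TOP motif, mainly those of translation factors, made up a further list. Of 18 tested, 9 rose (50%) and 0 fell with the PHF12 siRNA (median 0.07; 0 falls also at an unadjusted edgeR p under 0.05 and by DESeq2), and 2 rose (11.1%) and 10 fell (55.6%) with the SUDS3 siRNA (median -0.10). EIF4B, an initiation factor that helps the helicase eIF4A, rose with the PHF12 siRNA (0.23, edgeR adjusted p = 4.02e-08), as did EIF2S3 (0.24), EIF3L (0.23) and EIF3H (0.18). TPT1, the translationally controlled tumour protein, fell with the SUDS3 siRNA (-0.31, adjusted p = 3.27e-12), as did the elongation factor genes EEF1B2 (-0.23) and EEF2 (-0.15) and the initiation factor gene EIF2S3 (-0.22).

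Factors that build the small subunit showed no single direction. Of 54 tested, 11 rose (20.4%, beside 14.8% of all genes) and 15 fell (27.8%, beside 17.1%) with the PHF12 siRNA (median 0.00). With the SUDS3 siRNA 20 rose (37.0%, beside 19.6%) and 16 fell (29.6%, beside 19.2%), with a median of 0.08. PNO1, which guides the last cleavage of the small-subunit rRNA, fell to 53.0 ± 1.55 CPM in PHF12 knockdown, against 89.7 ± 2.91 CPM in controls (-0.76). HEATR1 (-0.24) and NOL6 (-0.38), both of the early nucleolar precursor, fell as well, and TSR2, the escort of RPS26, rose (0.32). With the SUDS3 siRNA, UTP14A (-0.55), the rRNA methyltransferase gene EMG1 (-0.56) and WDR43 (-0.28) fell and IMP3 rose (0.39).

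The list of enzymes that modify small-subunit proteins, with regulators of TOP mRNAs, held 23 genes. Among them was MAX of the MYC network, which is neither. Of the 23 genes, 4 rose (17.4%, beside 14.8%) and 13 fell (56.5%, beside 17.1%) with the PHF12 siRNA (median log2 fold change -0.19). With the SUDS3 siRNA 8 rose (34.8%, beside 19.6%) and 6 fell (26.1%, beside 19.2%), with a median of 0.01. LARP1, which binds the TOP motif, was at 290 ± 12.2 CPM in PHF12 knockdown, 230 ± 5.97 CPM in SUDS3 knockdown and 364 ± 2.17 CPM in control libraries. It fell with both siRNAs (-0.33, edgeR adjusted p = 2.72e-10, and -0.66, adjusted p = 2.96e-18). Falls with the PHF12 siRNA were also seen in USP10 (-0.69), which removes ubiquitin from small-subunit proteins, in EIF4EBP2 (-0.55) and RPTOR (-0.69) of the mTOR pathway, and in the S6 kinase family gene RPS6KA3 (-0.64). With the SUDS3 siRNA, UFL1 (-0.74), a ligase of the ubiquitin-like UFM1, fell, and MAX (0.36) and the ubiquitin ligase gene RNF10 (0.23) rose.

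An earlier scan of these same fold changes picked 2 short sequences in 3' UTRs, AATCAC for falls with the PHF12 siRNA and TACATT for falls with the SUDS3 siRNA, so their presence here is a description and supports nothing. The siRNA sequences were not given in the sources used here. In the principal GENCODE 29 transcripts, AATCAC was in the 3' UTR of RPS19, RPS21 and RPS23, against 25.6% of 13817 genes tested, and in the coding sequence of RPS20, RPS23 and RPS27, against 22.1%. TACATT was in the 3' UTR of RPS3, RPS23, RPS25 and RPS28, against 35.2%, and in the coding sequence of RPS15A and RPS26, against 22.8%. Members have short 3' UTRs, with a median of 64 bases, against 980 over those genes. The sites below are shown with the 12 bases on each side and the hexamer in capitals, for RPS21, RPS25 and RPS26, whose changes stand at the ends of the family, and for RPS19 and RPS23, which hold AATCAC and did not fall past the threshold with the PHF12 siRNA.
RPS21, 3' UTR: ttgactggagagAATCACagatgtggaata
RPS19, 3' UTR: aactagagtttaAATCACaactctgcccct
RPS23, 3' UTR: gattgctcaatcAATCACgaccctttcatg
RPS25, 3' UTR: tccaaccagctgTACATTtggaaaaataaa
RPS26, coding: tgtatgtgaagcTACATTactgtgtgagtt
The hexamers lie in GRCh38 at chr20:62388475-62388480 (RPS21, plus strand), chr19:41872420-41872425 (RPS19, plus strand), chr5:82273450-82273455 (RPS23, minus strand), chr11:119015740-119015745 (RPS25, minus strand) and chr12:56043393-56043398 (RPS26, plus strand). In RPS21 the hexamer starts at base 9 of a 3' UTR of 53 bases. In RPS19 it starts at base 1043 of 1549, and in RPS23 at base 2654 of 2751. All transcripts here were picked by annotation, and which 3' UTRs these cells make was not examined. The log2 fold changes of these genes with the PHF12 siRNA were -1.10 (RPS21), 0.19 (RPS19) and -0.06 (RPS23). RPS25, whose TACATT starts at base 18 of a 3' UTR of 51 bases, had -0.22 with the SUDS3 siRNA. RPS23, with TACATT at bases 556 and 942 of its 3' UTR, had -0.18, and RPS3 and RPS28, with the hexamer at base 1260 of 1303 and base 889 of 1085, had -0.08 and 0.00.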

How the data were processed

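The authors deposited whole-number counts per gene and TPM for 9 libraries. Per the submitters' processing notes, Trimmomatic 0.36, HISAT2 2.1.0 and HTSeq were used with GRCh38. The strand setting was not given in the sources used here, so reads of overlapping genes cannot be told apart. Per the labels' protocols, the kit was stranded and poly-A selected. All 58735 identifiers were in GENCODE 29. Of the deposited counts above 0, 96.1% are multiples of 4 (56.7% for the members), so low counts may stand for fewer fragments.

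The deposited TPM are the counts divided by a length that does not follow gene length: across 9425 genes, Spearman's rho with exon length was 0.0081. That length is constant over libraries, so apart from an alternative summed level TPM served only for comparisons within a gene. This replaced the planned TPM levels by TMM-scaled CPM, per kilobase of coding length between genes. The deposited counts went into edgeR 4.0.16 (R 4.3.3) after filterByExpr with a minimum count of 10, with TMM scaling and a robust quasi-likelihood model of 1 mean for each of 3 groups. F-tests of 3 contrasts were adjusted by Benjamini-Hochberg over all 18088 genes, and adjusted p under 0.05 passed. All 28 members passed the count filter. The fit was tested on simulated data. SEs come from the F-statistic. Group sums were compared by an exact permutation test.

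Alternatives were other scalings (RLE, upper quartile, library totals, the members' own sum), DESeq2 1.42.0, limma 3.58.1 on log2(TPM + 1) and log2(TPM + 0.1), no filter, counts divided by 4, only the libraries of a contrast, a replicate block, and each library left out. The members and lists were chosen with earlier results of these data known. Every member is named. Values in every library are given for the 3 largest and 3 smallest log2 fold changes of each contrast and for members that passed against the majority. Up to 4 genes of each other list are named by adjusted p. The lists by place in the subunit were set after the fold changes were seen.

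Nothing says that replicates came from separate cultures, so p-values measure the spread between these libraries, which may be technical. No 2 libraries of a group were identical, and their chi-square per degree of freedom was 1.39 to 2.23.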

Additional observations from a re-analysis of the deposited data

How the results depend on the processing

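Scaling libraries to the summed counts of the members removes the common shift of the family and shifted the median of all genes by -0.11 (PHF12 knockdown over control), 0.09 (SUDS3 knockdown over control) and 0.20 (SUDS3 knockdown over PHF12 knockdown) on the log2 scale. Under it, 6 members rose and 5 fell with the PHF12 siRNA (median 0.0060), 5 rose and 4 fell with the SUDS3 siRNA (median -0.0082), and 7 rose and 6 fell in SUDS3 knockdown over PHF12 knockdown (median -0.019). Of all 18088 genes, 1194 rose and 4914 fell with the PHF12 siRNA under this scaling. With the SUDS3 siRNA 5080 of all genes rose and 2293 fell, and between the knockdowns 7264 rose and 1831 fell. By that scaling's own construction the signs of several members reversed. With the PHF12 siRNA these were RPS7 (-0.0078), RPS9 (-0.077), RPS15A (-0.0026), RPS20 (-0.10), RPS27 (-0.030) and RPS27A (-0.017). RPS2 (-0.050), RPS13 (-0.045), RPS15 (-0.062), RPS26 (-0.064) and RPS28 (-0.034) also changed sign, and passed under neither TMM nor this scaling. With the SUDS3 siRNA the reversed members were RPS3 (0.011), RPS3A (0.022), RPS16 (0.00012), RPS20 (0.026) and RPSA (0.0091). RPS2 (0.062), RPS14 (0.055) and FAU (0.040) changed sign there too, again passing under neither. In SUDS3 knockdown over PHF12 knockdown the reversed members were RPS2 (0.11), RPS9 (0.050), RPS13 (0.013), RPS15 (0.038), RPS19 (0.058), RPS20 (0.13), RPS23 (0.087), RPS27 (0.12), RPS28 (0.13), RPS29 (0.058) and RPSA (0.16).

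Upper-quartile scaling gave medians of 0.15 (PHF12 siRNA), -0.13 (SUDS3 siRNA, with 0 members that rose) and -0.29 (SUDS3 knockdown over PHF12 knockdown). Where edgeR counted 0 rises, 1 member rose at an unadjusted p under 0.05 and DESeq2 counted 2. Of all 18088 genes, 3064 rose with the SUDS3 siRNA under upper-quartile scaling. Library totals gave 3 rises, beside 3923 of all 18088 genes, and a median of -0.077 with the SUDS3 siRNA. Between the knockdowns they gave a median of -0.20. For the SUDS3 siRNA, limma on log2(TPM + 1) gave a median of -0.082 with and without a filter. Without a filter it counted 11 falls, beside 2376 of all 28978 genes. On log2(TPM + 0.1) the median was -0.083. Leaving out 1 library gave medians of 0.092 to 0.13 (PHF12 siRNA) and -0.23 to -0.20 (between the knockdowns), and 0 to 3 rises with the SUDS3 siRNA (0 without control replicate 2, where 1 rose at an unadjusted p under 0.05, and 0 without SUDS3 knockdown replicate 1, where 0 did). Without control replicate 2, 3119 of all 18650 genes rose, and without SUDS3 knockdown replicate 1, 3075 of 18728. The log2 ratio of the summed level with the SUDS3 siRNA was -0.093, and -0.072 from deposited TPM and -0.10 to -0.084 with 1 library left out. The TPM sum weights the members unlike the counts. In controls RPS6 and RPS14 took 21.4% and 19.8% of it, against 10.2% and 2.97% of the members' counts. RPS2 took 0.485% of it, against 10.1% of those counts. Between the knockdowns it was -0.20, and -0.19 without RPS4X and -0.21 to -0.19 with 1 library left out. The cause of these moves was not tested.

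With the replicate number as a block, 18 members rose and 1 fell (PHF12 siRNA), 1 rose and 19 fell (SUDS3 siRNA), and 1 rose and 25 fell between the knockdowns. Over all 18088 genes the block gave 2740 rises and 3108 falls with the PHF12 siRNA. It gave 3587 and 3486 with the SUDS3 siRNA, and 4147 and 3834 between the knockdowns. Deviations of same-numbered libraries correlated by -0.016 to 0.03 over 9 pairs, and those of other pairs by -0.032 to 0.018. These correlations showed no pairing by number. The members' summed level was nevertheless lowest in replicate 3 of PHF12 knockdown (29544 CPM), SUDS3 knockdown (25991 CPM) and control (27428 CPM). A pairing of the libraries could therefore not be excluded. Every member was counted under every setting but scaling to the members. With the PHF12 siRNA 525 values of 560 kept both their sign and their side of the threshold. With the SUDS3 siRNA 475 did so, and between the knockdowns 528.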
